A study of Mus musculus with 6 samples.

Results

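The G2 and mitosis genes are 48 mouse genes whose products carry a cell from the end of DNA replication through chromosome segregation to the separation of the daughter cells. They were chosen by gene symbol, with earlier results of these data known. Each was read by the probe set, among those annotated with that single symbol, that had the highest mean signal over the 6 arrays. A probe set was found for 47 of the 48, among 18193 genes measured in all; Ccnb1 was not analysed here. All 47 lay above the filter on dim genes and were tested among 10916 genes. The arrays measured thymocytes sorted on surface CD4 and CD8, with 2 arrays for each of 3 stages: double-positive (DP) cells with both coreceptors, CD4intCD8+ cells with intermediate CD4, and CD8 single-positive (CD8SP) cells. All came from N15 TCR tg+/+ RAG-2-/- mice of the H-2b haplotype, 5 to 6 weeks old and matched for age and sex, 6 in number and used in a pair of independent experiments. N15 is a class I-restricted T cell receptor carried as a transgene, and without RAG-2 no other receptor can be assembled, so every group shares 1 receptor and both alterations. The labels do not tie an array to particular mice, and p-values therefore measure the spread between these arrays. The comparisons follow development from DP through CD4intCD8+ to CD8SP cells.

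A cell that has copied its DNA enters mitosis when cyclin B and Cdk1 are activated. It condenses its chromosomes, attaches them to a bipolar spindle through their kinetochores, and waits at the spindle checkpoint until the anaphase-promoting complex is switched on. Transcripts of these genes are made mainly in G2 and mitosis: the DREAM complex holds their promoters silent in resting cells, and the MuvB core with B-Myb and FoxM1 activates them later through a CHR element and CCAAT boxes. In the thymus most division precedes the small, resting DP stage. Here positive selection by class I molecules turns DP into CD8SP cells through a CD4-low intermediate.

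Values of a gene on the arrays are given below as intensity, replicate 1 before replicate 2, and log2 changes with their standard error. Array medians over all probes lay between 24.9 and 25.7 intensity units, and replicate arrays of a stage correlated with r from 0.975 to 0.983 across genes, which are not independent replicates. Stage markers followed the labels: Rag1, needed for receptor assembly and a DP marker, had 1046 and 1054 in DP cells, 101 and 134 in CD4intCD8+ cells, and 57.8 and 97.9 in CD8SP cells, and Itgae, the CD103 chain of CD8 cells, had 61.3 and 41.6 in DP cells, 368 and 278 in CD4intCD8+ cells, and 1211 and 1029.8 in CD8SP cells. Cd4 itself had 351 and 515 in DP cells, -33.0 and 11.8 in CD4intCD8+ cells, and -65.8 and -68.6 in CD8SP cells, so the intermediate surface CD4 by which CD4intCD8+ cells were sorted had no matching transcript signal above the filter on dim genes. CD4intCD8+ replicate 2 stood apart in the actin control probes. Their 3' to 5' signal ratio, which is higher where RNA is degraded or only partly copied, stood at 1.98 and 2.14 for DP cells, 2.37 and 3.47 for CD4intCD8+ cells, and 2.28 and 2.62 for CD8SP cells. Some results that rest on this array are given with and without it. Others are given only with it, namely counts of non-overlapping arrays, the fit with a replicate block described below, and most other gene lists.

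Most of the 47 genes had their highest mean signal at the intermediate stage, with CD4intCD8+ replicate 2 the highest array. Stage means ran in the order DP, CD8SP, CD4intCD8+ from low to high in 41 of 47 genes (87.2%), against 17.9% of all genes tested. Without CD4intCD8+ replicate 2 that order held in 19 of 47 (40.4%, against 13.7% of all genes tested). It held in 22 without CD8SP replicate 2 (46.8%, against 18%) and in 29 without CD8SP replicate 1 (61.7%, against 13.9%). The order of the stage means thus rests on these arrays. The highest single array was CD4intCD8+ replicate 2 for 43 of 47 (91.5%), against 20.4% of all genes tested. The lowest array was a DP array for 31 genes and a CD8SP array for 16. Exceptions to the order of stage means were Bub3, Kif23, Pttg1 and Smc4, with the highest mean in DP cells, and Ube2c and Cdc25b, with the lowest mean in CD8SP cells. The median gene of the set had a log2 level of 7.61 and 7.68 for DP cells, 7.85 and 8.60 for CD4intCD8+ cells, and 7.71 and 8.12 for CD8SP cells. In mixed cell populations a change in the number of cycling cells and a change in RNA per cell cannot be told apart.

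**Figure D1:**
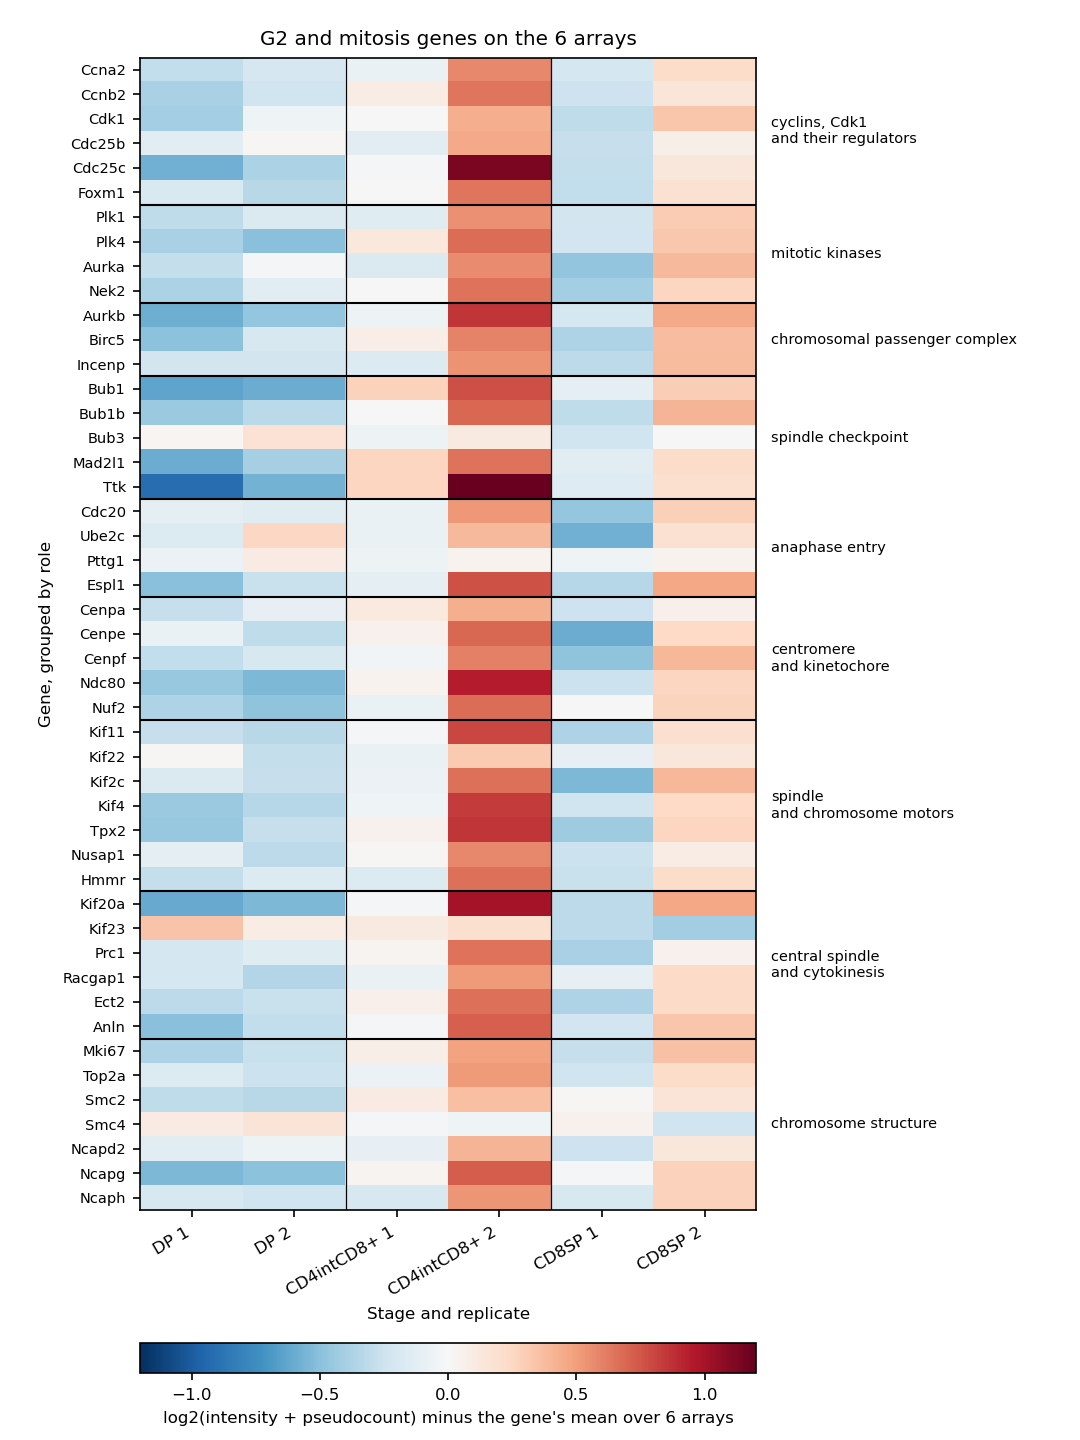
Signal of the 47 G2 and mitosis genes (rows, grouped by role) on the 6 arrays (columns), as log2(intensity + 5.84) minus the mean of that gene over the arrays; red is above and blue below the mean. The column of CD4intCD8+ replicate 2 is the highest for 43 genes, and Kif23, Smc4 and Bub3 have their lowest mean in CD8SP cells.

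The promoters of these genes share sequence features that the choice by symbol did not use. RefSeq promoter windows (GRCm38.p6, 250 bases before to 50 after the start) were found for 39 of the 47 genes, some with a second start, 42 windows in all. A CHR, searched as TTTGAA or TTCGAA on both strands, lay between 100 bases before and 50 after the start in 30 of 42 windows (71.4%), against 8.59% of 32851 mouse promoter windows. A CCAAT box, the letters CCAAT on either strand, was found anywhere in 76.2% of windows, against 37.4%. Both together were present in 66.7%, against 3.42%. An E2F word, searched on both strands as TTNNCGC with C or G at each N, was found in 21.4%, against 9.57%; as in Ect2, such a word can overlap a CCAAT box. A match is a run of letters and does not show that a factor binds there. Median log2 change from DP to CD4intCD8+ was 0.52 in the 28 genes with a CHR near the start (from -0.07 to 1.47) and 0.56 in the 11 without (from -0.02 to 0.95), and 4 of the 6 genes that passed the test below had one.

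The 5 windows below belong to the genes with the highest mean signal among those with a CHR near the start, and show how these elements are spaced. CHR words and CCAAT boxes, in either orientation, are in capitals. Each runs 5′ to 3′ on the strand of the gene and ends 50 bases after the start.
Top2a (chr11:99024140-99024439, minus strand): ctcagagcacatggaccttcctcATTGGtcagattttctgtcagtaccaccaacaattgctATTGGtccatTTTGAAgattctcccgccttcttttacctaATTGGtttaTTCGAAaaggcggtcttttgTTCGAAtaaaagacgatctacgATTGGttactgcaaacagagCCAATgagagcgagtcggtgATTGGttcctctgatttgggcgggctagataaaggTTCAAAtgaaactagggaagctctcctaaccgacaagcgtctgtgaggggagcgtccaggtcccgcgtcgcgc
Bub3 (chr7:131560120-131560419, plus strand): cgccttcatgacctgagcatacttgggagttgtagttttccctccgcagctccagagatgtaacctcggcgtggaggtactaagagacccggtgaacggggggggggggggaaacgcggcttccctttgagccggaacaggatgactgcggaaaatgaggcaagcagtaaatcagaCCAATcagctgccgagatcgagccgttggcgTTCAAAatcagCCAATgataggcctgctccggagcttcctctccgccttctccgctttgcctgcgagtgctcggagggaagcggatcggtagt
Kif22 (chr7:127042371-127042670, minus strand): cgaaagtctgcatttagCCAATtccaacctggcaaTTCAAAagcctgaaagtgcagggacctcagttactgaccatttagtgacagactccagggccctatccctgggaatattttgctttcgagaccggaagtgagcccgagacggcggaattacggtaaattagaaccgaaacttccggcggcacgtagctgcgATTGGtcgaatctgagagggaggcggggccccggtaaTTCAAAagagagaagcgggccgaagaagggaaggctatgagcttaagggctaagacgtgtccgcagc
Mki67 (chr7:135716330-135716629, minus strand): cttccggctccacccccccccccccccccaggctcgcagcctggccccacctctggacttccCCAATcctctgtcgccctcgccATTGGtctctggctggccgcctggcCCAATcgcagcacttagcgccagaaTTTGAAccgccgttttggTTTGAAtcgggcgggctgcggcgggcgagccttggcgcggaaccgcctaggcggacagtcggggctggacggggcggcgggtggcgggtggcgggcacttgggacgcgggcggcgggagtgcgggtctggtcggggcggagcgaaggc
Cdk1 (chr10:69352863-69353162, minus strand): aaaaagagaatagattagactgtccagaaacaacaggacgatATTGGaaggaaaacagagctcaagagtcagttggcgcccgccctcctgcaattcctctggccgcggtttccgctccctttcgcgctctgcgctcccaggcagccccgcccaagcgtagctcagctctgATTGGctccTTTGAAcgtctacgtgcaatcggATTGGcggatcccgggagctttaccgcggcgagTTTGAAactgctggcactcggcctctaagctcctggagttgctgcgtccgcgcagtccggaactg
In Cdk1 a CHR ends 10 bases before the start and CCAAT boxes lie 48 and 80 bases before it. In Bub3 a CHR lies between CCAAT boxes that begin 32 and 74 bases before the start, and in Kif22 a CHR that begins 17 bases before the start follows a CCAAT box at 54. Bub3 and Kif22 carry these letters and, by their chosen probe sets, did not pass in any comparison below.

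**Figure D2:**
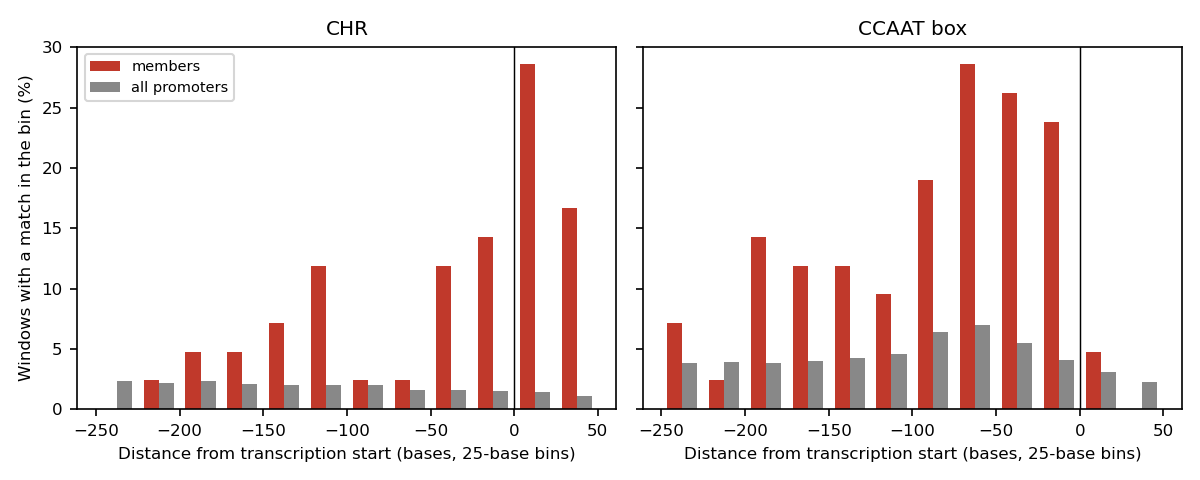
Share of promoter windows (y axis, percent) with a CHR (left) or a CCAAT box (right) in each 25-base bin of distance from the transcription start (x axis, bases), for the 42 windows of the G2 and mitosis genes (red) and 32851 mouse windows (grey). CHR matches of the set peak just after the start, at 28.6% of windows, where all promoters have 1.43%.

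Between DP and CD4intCD8+ cells, 6 of the 47 genes rose and 0 fell. A gene passed when its Benjamini-Hochberg adjusted p from limma, taken over all genes tested, was under 0.05. In this comparison 6.89% of all genes tested passed as higher and 4.85% as lower, beside 12.8% of the 47 as higher. The genes that rose were Bub1, Mad2l1 and Ttk of the spindle checkpoint, Plk4 of the centriole cycle, and Ncapg and Smc2 of condensin. With the replicate number as a block, 28 of 47 rose and 0 fell, while 13.4% of all genes tested rose and 10.2% fell. The block removes only a shift between replicate numbers that is equal at every stage. For the 47 genes the median log2 shift was 0.09 in DP, 0.64 in CD4intCD8+ and 0.47 in CD8SP cells, so part of it stays in this comparison. At an unadjusted p under 0.05, 26 were higher and 0 lower (16.1% and 12.8% of all genes tested). The direction was higher in 43 of 47 (51.6% of all genes tested), with a median log2 change of 0.55 against 0.01 over all genes tested. Both CD4intCD8+ arrays lay above both DP arrays for 38 genes (30.8% of all genes tested), and below both for 1, Smc4 (27.9%). The size differed between the replicate numbers. The median log2 change was 0.26 within replicate 1, with 42 of 47 higher (49.5% of all genes tested), and 0.83 within replicate 2, with 44 of 47 higher (53.5%). Without CD4intCD8+ replicate 2 the median was 0.25. Fewer of the 47 passed without that array or without either DP array, and more without CD4intCD8+ replicate 1. The number of all genes that passed also changed with the array left out. With the actin 3' to 5' ratio of each array as a covariate 0 passed and the median was -0.04. That ratio was lowest on the DP arrays, so it cannot be fully told apart from stage. In the fit without an intensity trend 3 passed, and 3 with the mean of all probe sets of a gene. Fewer of all genes tested passed in each of these fits too.

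**Figure D3:**
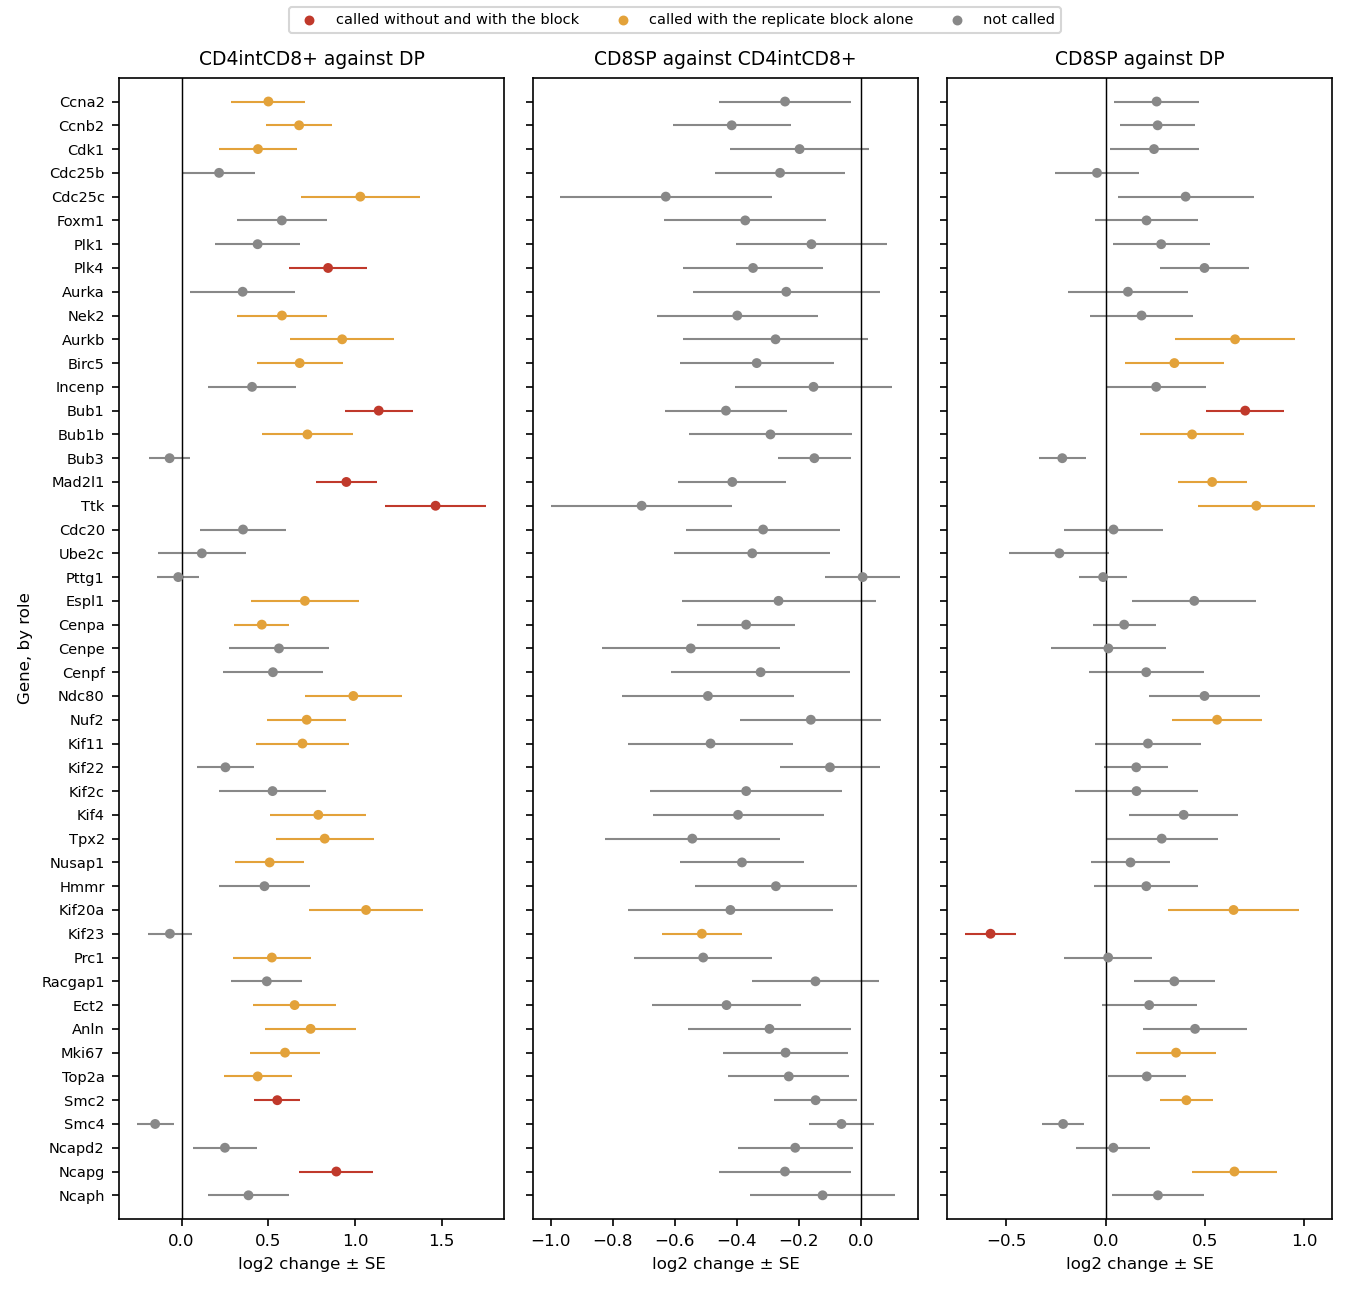
Log2 change (x axis, point) with its standard error from the fit without the block (line) for each of the 47 genes (rows) in the 3 pairwise comparisons. Of the points, 43 lie above 0 for CD4intCD8+ against DP, 46 lie below 0 for CD8SP against CD4intCD8+ and 41 lie above 0 for CD8SP against DP, with Kif23 lowest in the last.

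The spindle checkpoint holds anaphase back while any kinetochore is unattached, and it held 3 of the 6 genes that rose: 3 of its 5 genes passed and 4 did with the block. Bub1, a kinase that marks centromeres and recruits the checkpoint, had 141 and 144 in DP cells, 269 and 381 in CD4intCD8+ cells, and 203 and 272 in CD8SP cells. All 4 later arrays lay above the DP arrays, and the CD8SP and CD4intCD8+ arrays overlapped. Bub1 averaged 325 ± 79.1 in CD4intCD8+ cells and 142 ± 2.34 in DP cells (SD, n = 2 each). The log2 change from DP to CD4intCD8+ was 1.14 ± 0.20 (SE; limma adjusted p = 0.0101), 0.91 within replicate 1 and 1.37 within replicate 2. Mad2l1, the MAD2 protein that blocks Cdc20, had 319 and 368 in DP cells, 581 and 767 in CD4intCD8+ cells, and 441 and 565 in CD8SP cells. The 3 stages did not overlap, and the change was 0.95 ± 0.17 (limma adjusted p = 0.0116). Ttk, the MPS1 kinase that starts checkpoint signalling, had 30.6 and 40.5 in DP cells, 76.3 and 151 in CD4intCD8+ cells, and 55.8 and 72.5 in CD8SP cells. Its change of 1.47 ± 0.29 (limma adjusted p = 0.0153) was the largest of the set, at 1.17 within replicate 1 and 1.76 within replicate 2. A second, dimmer Ttk probe set had a log2 change of -0.18 in the same comparison, so the direction and size of the Ttk change depend on the probe set. Bub1b, the BubR1 subunit of the inhibitory complex, had 255 and 278 in DP cells, 348 and 566 in CD4intCD8+ cells, and 281 and 465 in CD8SP cells. It had a log2 change of 0.73 ± 0.26 and passed only with the block (limma adjusted p = 0.105 without it and 0.0066 with it). Bub3, the platform on which Bub1 and BubR1 sit, had 1231 and 1359.5 in DP cells, 1159 and 1311 in CD4intCD8+ cells, and 1023 and 1206 in CD8SP cells. Its DP and CD4intCD8+ arrays overlapped, and the change was -0.07 ± 0.12 (limma adjusted p = 0.748).

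Without CD4intCD8+ replicate 2 the change of Bub1 was 0.89 (limma adjusted p = 0.0378), that of Mad2l1 0.75 (limma adjusted p = 0.0551) and that of Ttk 1.00 (limma adjusted p = 0.0539). For Ncapg it was 0.55 (limma adjusted p = 0.147), for Smc2 0.42 (limma adjusted p = 0.219) and for Plk4 0.57 (limma adjusted p = 0.214). Of the 6 genes, Bub1 alone thus passed without that array.

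**Figure D4:**
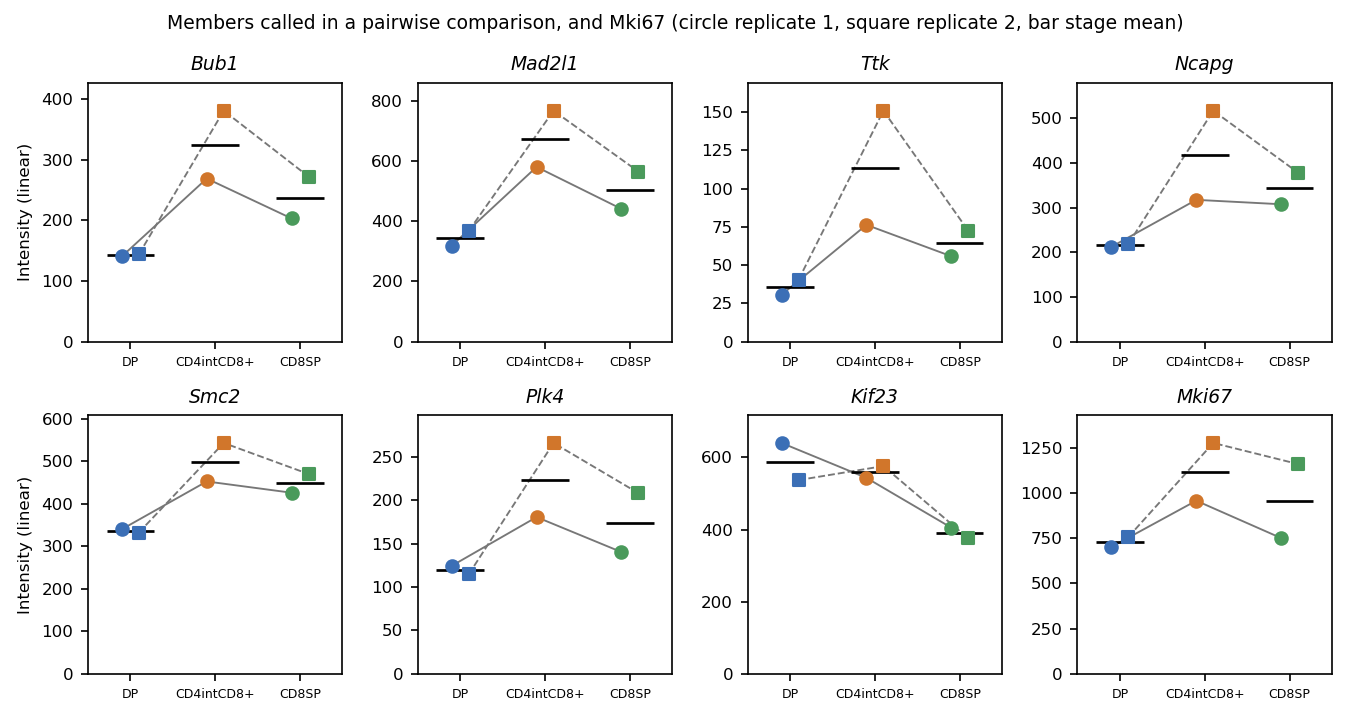
Intensity (y axis, linear, from 0) on each array by stage for the 7 genes that passed in a pairwise comparison and for Mki67; circles joined by a solid line are replicate 1, squares joined by a dashed line replicate 2, and the bar is the mean of a stage. Both CD4intCD8+ points of Bub1, at 269 and 381, stand above the DP points at 141 and 144, while Kif23 is lowest in CD8SP cells at 405 and 376.

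Among the kinases that run centrosomes and spindle poles, 1 of 4 passed, and 2 did with the block. Plk4, which licenses centriole duplication, had 124 and 115 in DP cells, 181 and 266 in CD4intCD8+ cells, and 140.3 and 208 in CD8SP cells. Its arrays did not overlap between DP and CD4intCD8+ cells, with a change of 0.84 ± 0.23 (limma adjusted p = 0.0426). Nek2, which parts the centrosomes, had 141 and 168 in DP cells, 185 and 293 in CD4intCD8+ cells, and 138 and 222 in CD8SP cells. CD4intCD8+ lay above DP on both arrays, and the change of 0.58 ± 0.26 passed only with the block (limma adjusted p = 0.178 and 0.0149 with it). Plk1, the master kinase of mitotic entry and exit, had 150.1 and 165 in DP cells, 168 and 275 in CD4intCD8+ cells, and 159 and 232 in CD8SP cells. Aurka, the spindle pole Aurora kinase, had 166 and 199.6 in DP cells, 179.8 and 304 in CD4intCD8+ cells, and 145 and 267 in CD8SP cells. In both, CD4intCD8+ replicate 1 was close to the DP arrays and replicate 2 well above, and the changes of 0.44 ± 0.24 and 0.35 ± 0.30 did not pass with or without the block (limma adjusted p = 0.273 and 0.481 without it).

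Condensin folds chromosomes into compact rods, with Smc2 and Smc4 as its ATPase pair and Ncapd2, Ncapg and Ncaph as the other subunits of condensin I. Of the 7 genes of chromosome structure, 2 passed and 4 did with the block. Ncapg had 212 and 219 in DP cells, 317 and 517 in CD4intCD8+ cells, and 308 and 378 in CD8SP cells. All 4 later-stage arrays lay above the DP arrays, and the change to CD4intCD8+ was 0.89 ± 0.21 (limma adjusted p = 0.0298). Smc2 had 340.0 and 332 in DP cells, 452 and 543 in CD4intCD8+ cells, and 426 and 469.8 in CD8SP cells. It followed the same pattern with a smaller change of 0.55 ± 0.13 (limma adjusted p = 0.0312). Smc4, its partner, had 2039 and 2107 in DP cells, 1896 and 1834 in CD4intCD8+ cells, and 1979 and 1611 in CD8SP cells. This was the only one of the 47 genes with both CD4intCD8+ arrays under both DP arrays; its change of -0.15 ± 0.11 did not pass (limma adjusted p = 0.382), and 2 further Smc4 probe sets had a log2 change of -0.26 and -0.07. The log2 changes of Ncaph and Ncapd2 were 0.39 ± 0.23 and 0.25 ± 0.19, and neither passed. Top2a, the topoisomerase that untangles sister chromatids, had 1067 and 1004 in DP cells, 1148 and 1719 in CD4intCD8+ cells, and 1021 and 1399 in CD8SP cells. Mki67, which encodes the Ki-67 proliferation antigen that coats mitotic chromosomes, had 702 and 757 in DP cells, 957 and 1276 in CD4intCD8+ cells, and 751 and 1159.6 in CD8SP cells. For both, CD4intCD8+ replicate 2 was the highest array and CD8SP replicate 1 lay near the DP level. The changes to CD4intCD8+ were 0.44 ± 0.20 for Top2a and 0.60 ± 0.20 for Mki67, which passed with the block alone (limma adjusted p = 0.0405 and 0.00528).

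None of the 6 measured genes of the cyclin B and Cdk1 switch passed without the block (3 were higher and 0 lower at an unadjusted p under 0.05), and 4 did with it. Ccnb2, cyclin B2, had 639 and 711 in DP cells, 892 and 1311 in CD4intCD8+ cells, and 706 and 926 in CD8SP cells. Its CD4intCD8+ arrays lay above its DP arrays and its change was 0.68 ± 0.19, just short of the threshold (limma adjusted p = 0.0506, and 0.00175 with the block). Ccna2, cyclin A2 of S phase and G2, had 548 and 585 in DP cells, 637 and 1013 in CD4intCD8+ cells, and 583 and 787 in CD8SP cells. Cdk1, the kinase both cyclins activate, had 647 and 829 in DP cells, 853 and 1162 in CD4intCD8+ cells, and 693 and 1087 in CD8SP cells. In both, replicate 2 was above replicate 1 at every stage, and the changes of 0.50 ± 0.21 and 0.44 ± 0.22 passed only with the block (limma adjusted p = 0.0185 and 0.00967). Cdc25c and Cdc25b, phosphatases that release Cdk1 from its inhibitory phosphates, differed in size, at 1.03 ± 0.34 and 0.22 ± 0.21, and Cdc25c passed with the block (limma adjusted p = 0.0125). Foxm1, the forkhead factor that activates many of these promoters, had a log2 change of 0.58 ± 0.26 and did not pass in either fit (limma adjusted p = 0.181 and 0.0934 with the block).

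The chromosomal passenger complex corrects faulty attachments and later directs cytokinesis; 0 of its 3 measured genes passed, and 2 did with the block (2 were higher and 0 lower at an unadjusted p under 0.05). Aurkb, its kinase, had 78.0 and 85.9 in DP cells, 115 and 223 in CD4intCD8+ cells, and 104 and 168 in CD8SP cells. Birc5, survivin, had 419.6 and 519 in DP cells, 628 and 901 in CD4intCD8+ cells, and 458 and 771 in CD8SP cells. Both had CD4intCD8+ above DP on every array, with changes of 0.93 ± 0.30 and 0.68 ± 0.25, which passed with the block (limma adjusted p = 0.00503 and 0.00255). Incenp, the scaffold, had 579 and 582 in DP cells, 604 and 984 in CD4intCD8+ cells, and 545 and 882 in CD8SP cells. CD4intCD8+ replicate 1 lay close to the DP arrays and replicate 2 well above them, with a change of 0.41 ± 0.25 (limma adjusted p = 0.328).

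At centromeres and kinetochores 0 of 5 genes passed and 3 did with the block (3 were higher and 0 lower at an unadjusted p under 0.05). Cenpa, the histone H3 variant that marks the centromere, had 414 and 468 in DP cells, 545 and 680.1 in CD4intCD8+ cells, and 421 and 525 in CD8SP cells. Its CD4intCD8+ arrays lay above all 4 others, and the change from DP of 0.46 ± 0.16 passed with the block (limma adjusted p = 0.00912). Ndc80, which grips microtubules, had 104 and 97.9 in DP cells, 149.7 and 284 in CD4intCD8+ cells, and 120.5 and 174 in CD8SP cells, and Nuf2, its partner, had 140.4 and 129 in DP cells, 173 and 294 in CD4intCD8+ cells, and 183 and 221 in CD8SP cells. Both were low in DP and higher on all 4 later arrays, with changes to CD4intCD8+ of 0.99 ± 0.28 (limma adjusted p = 0.0505) and 0.72 ± 0.23 (limma adjusted p = 0.0717), and both passed with the block (limma adjusted p = 0.00594 and 0.017). Cenpe, a kinetochore kinesin, had 105 and 89.2 in DP cells, 115 and 183 in CD4intCD8+ cells, and 71.5 and 132 in CD8SP cells. The CD8SP arrays of Cenpe lay on either side of its DP arrays. Its change to CD4intCD8+ was 0.56 ± 0.29 and that of Cenpf 0.53 ± 0.29, and neither passed in either fit.

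Spindle motors and microtubule organisers gave 0 of 7 in the fit without the block and 4 with it (4 were higher and 0 lower at an unadjusted p under 0.05). Tpx2, which activates Aurora A on the spindle, had 156 and 177 in DP cells, 224 and 397 in CD4intCD8+ cells, and 159 and 259 in CD8SP cells. Nusap1, a microtubule bundler, had 413 and 355 in DP cells, 449 and 667 in CD4intCD8+ cells, and 371 and 472 in CD8SP cells. In both the CD8SP replicate 1 array was back at the DP level, and the changes to CD4intCD8+ were 0.83 ± 0.28 and 0.51 ± 0.20, which passed with the block (limma adjusted p = 0.00436 and 0.0449). Kif22, a motor on chromosome arms, had 1064 and 857 in DP cells, 989 and 1312 in CD4intCD8+ cells, and 976 and 1158 in CD8SP cells. Its stages overlapped and its change was 0.25 ± 0.16 (limma adjusted p = 0.342). The dimmer Kif22 probe sets had log2 changes of 0.85 and 0.78, so the size of the Kif22 change depends on the probe set. Of the others, Kif11, the motor that pushes spindle poles apart, had a log2 change of 0.70 ± 0.27 and Kif4, a chromosome motor, by 0.79 ± 0.28, and both passed with the block. Kif2c, a microtubule depolymerase, and Hmmr, a spindle protein, had a log2 change of 0.52 ± 0.31 and 0.48 ± 0.26 and did not.

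For the proteolysis step that starts anaphase the median change was 0.24. Of its 4 genes, 0 passed (1 was higher and 0 lower at an unadjusted p under 0.05), and Espl1, separase, passed with the block, at 0.71 ± 0.31 (limma adjusted p = 0.0129). Cdc20, the activator of the anaphase-promoting complex, had 627 and 614 in DP cells, 645 and 979 in CD4intCD8+ cells, and 489.8 and 829 in CD8SP cells. Ube2c, the ubiquitin-conjugating enzyme of that complex, had 668 and 890.2 in DP cells, 711 and 984 in CD4intCD8+ cells, and 501 and 855 in CD8SP cells. Pttg1, securin, had 477 and 537 in DP cells, 481 and 517 in CD4intCD8+ cells, and 485 and 518 in CD8SP cells. The stages of Ube2c and Pttg1 overlapped, and the changes to CD4intCD8+ were 0.35 ± 0.25, 0.12 ± 0.25 and -0.02 ± 0.12 for Cdc20, Ube2c and Pttg1 (limma adjusted p from 0.385 to 0.936). A second Pttg1 probe set had a log2 change of 0.30.

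Among the 6 central spindle and cytokinesis genes 4 passed with the block. Kif20a, a motor that carries the passenger complex to the midzone, had 72.4 and 75.9 in DP cells, 112 and 232 in CD4intCD8+ cells, and 89.6 and 158 in CD8SP cells. Prc1, which bundles midzone microtubules, had 112 and 117 in DP cells, 134 and 208 in CD4intCD8+ cells, and 98.6 and 136 in CD8SP cells. Ect2, the exchange factor that switches on RhoA at the cleavage furrow, had 122 and 126 in DP cells, 160.2 and 246 in CD4intCD8+ cells, and 117 and 181 in CD8SP cells. All 3 had CD4intCD8+ above DP on both arrays, with changes of 1.06 ± 0.33, 0.52 ± 0.22 and 0.65 ± 0.24 that passed with the block alone, as did Anln (anillin, 0.74 ± 0.26). A second Prc1 probe set of similar brightness had a log2 change of 0.06, so the size of the Prc1 change depends on the probe set. Racgap1 had 199.5 and 180.1 in DP cells, 218 and 331 in CD4intCD8+ cells, and 216 and 272 in CD8SP cells and had a log2 change of 0.49 ± 0.20, which passed in neither fit. Kif23, the motor of the centralspindlin complex, which it forms with Racgap1, had 639.7 and 537 in DP cells, 543 and 576 in CD4intCD8+ cells, and 405 and 376 in CD8SP cells. Its DP and CD4intCD8+ arrays overlapped (-0.07 ± 0.13, limma adjusted p = 0.779), and both CD8SP arrays lay below all others. Without the block 0 of these 6 genes passed in this comparison, with 5 higher and 0 lower at an unadjusted p under 0.05.

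From CD4intCD8+ to CD8SP cells nearly all of the genes had lower signal, but by limma none passed. The count was 0 of 47, with 5 lower (Kif23, Ttk, Mad2l1, Cenpa and Prc1) and 0 higher at an unadjusted p under 0.05. Of all genes tested 0.0183% passed as lower and 0.101% as higher, and at an unadjusted p under 0.05 it was 3.95% and 5.67%. The direction was lower in 46 of 47, Pttg1 being the exception, while 50% of all genes tested were higher. Median log2 change was -0.32, against 0.00 over all genes tested, and it was -0.30 within replicate 1 and -0.37 within replicate 2. It was -0.02 without CD4intCD8+ replicate 2, and -0.03 without CD8SP replicate 1. Ttk had 55.8 and 72.5 in CD8SP cells, against 76.3 and 151 in CD4intCD8+ cells, a change of -0.71 ± 0.29 (limma adjusted p = 0.482). Mad2l1 had a log2 change of -0.41 ± 0.17 (limma adjusted p = 0.495) and Cenpa by -0.37 ± 0.16 (limma adjusted p = 0.501). In these 3 genes and in Kif23 both CD8SP arrays lay under both CD4intCD8+ arrays, as they did in 18.6% of all genes tested. Kif23 had 405 and 376 in CD8SP cells, against 543 and 576 in CD4intCD8+ cells; its change of -0.51 ± 0.13 (limma adjusted p = 0.203) passed with the block (limma adjusted p = 0.0465), the only one of the 47 to do so, where 0.824% of all genes tested passed as lower and 1.25% as higher. Prc1, Tpx2, Cenpe and Nusap1, given above, had a log2 change of -0.51, -0.54, -0.55 and -0.38 on the log2 scale, with limma adjusted p from 0.512 to 0.592.

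Between DP and CD8SP cells, the ends of the series, 1 of the 47 rose and 1 fell, where 11.5% of all genes tested rose and 8.38% fell. Bub1 rose, with 203 and 272 in CD8SP cells, against 141 and 144 in DP cells (log2 change 0.70 ± 0.20, limma adjusted p = 0.0361). The groups did not overlap. Kif23 fell, with 405 and 376 in CD8SP cells, against 639.7 and 537 in DP cells (log2 change -0.58 ± 0.13, limma adjusted p = 0.0141), and a dimmer probe set of the gene had a log2 change of -0.64. With the block 11 rose and 1 fell, where 16.9% and 13.1% of all genes tested did: Mad2l1, Smc2, Ncapg, Ttk, Nuf2, Aurkb, Kif20a, Mki67, Bub1b and Birc5 joined Bub1. At an unadjusted p under 0.05, 6 were higher and 1 lower (18.7% and 14.8% of all genes tested). Both CD8SP arrays lay above both DP arrays for 16 of 47 (32.5% of all genes tested) and below both for 3 (29.1%). Of the genes that passed with the block, Mad2l1 had a log2 change of 0.54 ± 0.17 (limma adjusted p = 0.0597 without and 0.0034 with the block), Smc2 by 0.41 ± 0.13 and Ncapg by 0.65 ± 0.21. Plk4 had a log2 change of 0.50 ± 0.23 and stopped short of the threshold in both fits (limma adjusted p = 0.157 and 0.0501). Smc4 and Bub3 had both CD8SP arrays under both DP arrays, at -0.21 ± 0.11 and -0.22 ± 0.12, and passed in neither. The direction was higher in 41 of 47 (51.7% of all genes tested). The median log2 change was 0.25, against 0.02 over all genes tested. It was 0.02 within replicate 1, with 27 of 47 higher (50.6% of all genes tested), and 0.52 within replicate 2, with 42 of 47 higher (53%). Without CD8SP replicate 2 the median was -0.03 and the Bub1 change 0.50 (limma adjusted p = 0.204), and Kif23 had a log2 change of -0.53 (limma adjusted p = 0.0813). The Bub1 call was also lost without DP replicate 1 or DP replicate 2 (limma adjusted p = 0.148 and 0.13), and the Kif23 call without DP replicate 1 (limma adjusted p = 0.103). With the mean of all probe sets of a gene both were lost (limma adjusted p = 0.0912 for Bub1 and 0.0931 for Kif23).

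Set against the mean of both other stages, CD4intCD8+ cells gave a log2 difference with a median of 0.45 over the 47 genes, against 0.01 over all genes tested, and 45 of 47 were higher (51.7% of all genes tested). By limma 0 passed, with 21 higher and 0 lower at an unadjusted p under 0.05 (6.81% and 5.94% of all genes tested), and 0.00916% of all genes tested passed as higher. With the block 7 passed as higher, where 1.22% of all genes tested did and 0.696% passed as lower: Ttk (1.09 ± 0.25), Bub1 (0.79 ± 0.17), Tpx2 (0.68 ± 0.24), Mad2l1 (0.68 ± 0.15), Ccnb2 (0.55 ± 0.17), Birc5 (0.51 ± 0.21) and Cenpa (0.42 ± 0.14). Both CD4intCD8+ arrays lay above all 4 others in 3 genes, Ttk, Mad2l1 and Cenpa (5.83% of all genes tested). This difference shares its arrays with the pairwise comparisons and adds no further samples. The median was 0.15 without CD4intCD8+ replicate 2 and 0.79 without CD4intCD8+ replicate 1.

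Replicate 2 gave higher signal than replicate 1 for most of these genes after the DP stage. In CD4intCD8+ cells 46 of 47 were higher in replicate 2, by a median of 0.64 on the log2 scale, and in CD8SP cells 45 of 47, by 0.47. In DP cells it was 32 of 47, by 0.09. Over all genes tested the shares were 54.6%, 53% and 47.8%. The median of the set put the 6 arrays in the same order as the beta-actin ratio, but not as the same ratio of the Gapdh control probes, which was 1.37 and 1.53 for DP cells, 1.42 and 1.99 for CD4intCD8+ cells, and 1.40 and 1.48 for CD8SP cells. Both DP arrays had a lower beta-actin ratio than every later array, so this ratio cannot be fully told apart from a difference between DP and later stages. With the beta-actin ratio as a covariate the median log2 change from DP to CD4intCD8+ was -0.04, with 20 of 47 higher, and 0 passed. The change was then 0.66 for Bub1 (limma adjusted p = 0.122) and 0.64 for Ttk (limma adjusted p = 0.22). Kif23 kept its call: its change from DP to CD8SP was -0.58 with the covariate (limma adjusted p = 0.0196). Some markers of other maturity differed between the replicates as well. Of 10 double-negative markers 5 were higher on CD4intCD8+ replicate 2 than on replicate 1, and 5 were lower. Their sum was 752 on replicate 2 and 754 on replicate 1. Ptcra, the pre-receptor chain of double-negative thymocytes, had 41.4 and 49.9 in DP cells, 42.9 and 119.9 in CD4intCD8+ cells, and 37.9 and 111 in CD8SP cells, high on the later replicate 2 arrays alone, whereas Il2ra of the same cells lay between 19.0 and 34.3 on all arrays. Of 9 DP markers 7 were higher on CD4intCD8+ replicate 2 than on replicate 1, among them Dntt (1362 against 1062), and 2 were lower, Cd8a (1481 against 2361) and Cd8b1 (1790.1 against 2400.4). The sum of the 9 was lower on replicate 2, at 5845 against 6725. Of 9 CD8SP markers 8 were lower on replicate 2, among them Klf2 (755 against 1413), and 1, Klrd1, was higher. The part of RNA quality or of cell maturity in the replicate difference was not tested.

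**Figure D5:**
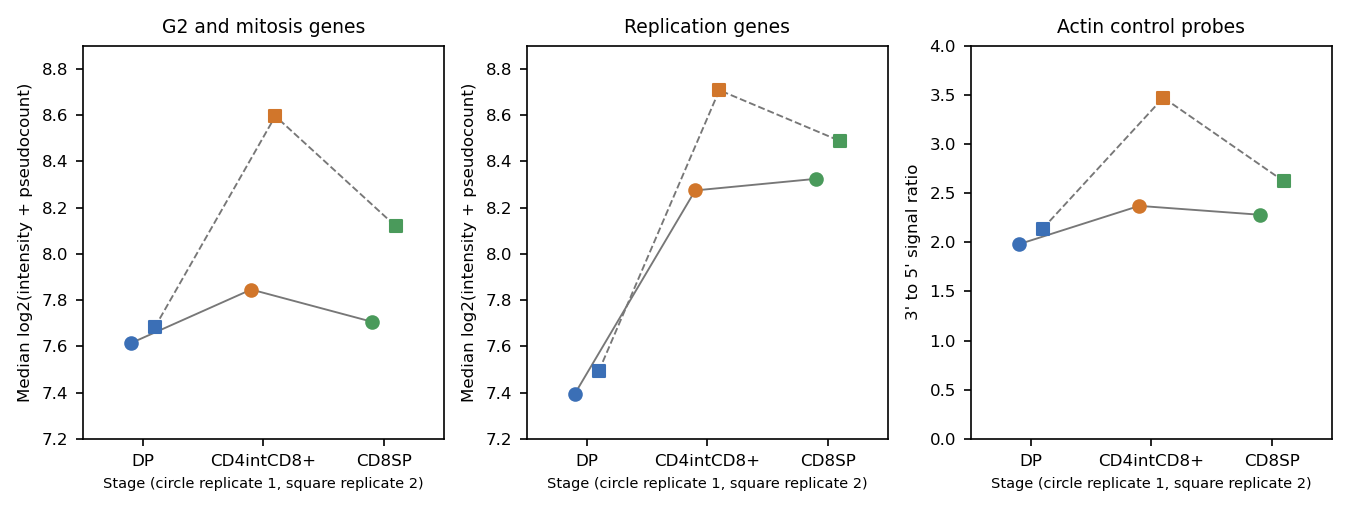
Median log2(intensity + 5.84) of the 47 G2 and mitosis genes (left) and of 42 DNA replication genes (middle), and the 3'/5' ratio of beta-actin probes (right), on each array by stage; circles joined by a solid line are replicate 1 and squares joined by a dashed line replicate 2. The left and right panels order the arrays alike, with CD4intCD8+ replicate 2 at 8.60 and 3.47. In every panel all 4 later arrays lie above both DP arrays.

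Genes of the preceding step, DNA replication, were set beside them. Among all genes tested 6.89% rose and 4.85% fell from DP to CD4intCD8+, and 11.5% rose and 8.38% fell from DP to CD8SP. Of 42 tested, 32 rose from DP to CD4intCD8+ (median log2 change 0.97) and 31 from DP to CD8SP (median 0.88), and from CD4intCD8+ to CD8SP the median was -0.06 with 0 passing (0 higher and 0 lower at an unadjusted p under 0.05). For the G2 and mitosis genes the last of these medians was -0.32; the difference was not tested. Pola1, the primase-linked polymerase, had 66.4 and 59.9 in DP cells, 141 and 239.9 in CD4intCD8+ cells, and 146 and 213 in CD8SP cells, and Ccne2, cyclin E2 of the G1 to S step, had 69.7 and 72.9 in DP cells, 143 and 232 in CD4intCD8+ cells, and 149 and 189 in CD8SP cells. Both rose from DP to CD4intCD8+ (1.47 ± 0.25 and 1.29 ± 0.22, limma adjusted p = 0.0101 and 0.00988). The median within replicate 1 was 0.70 for replication genes, against 0.26 for the G2 and mitosis genes. With the actin covariate the replication median from DP to CD4intCD8+ was 0.46 with 4 passing, and from DP to CD8SP 0.65 with 29 passing. For CD4intCD8+ against DP fewer of all genes tested passed in that fit too. Fewer replication genes passed for CD4intCD8+ against DP without either DP array or without CD4intCD8+ replicate 2.

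Further mitotic genes outside the 47 were counted in the same fit. From DP to CD4intCD8+ 6.89% of all genes tested rose and 4.85% fell. It was 13.4% and 10.2% with the block, and 16.1% and 12.8% at an unadjusted p under 0.05. From DP to CD8SP 11.5% rose and 8.38% fell. Of 25 other kinetochore and centromere genes 6 rose from DP to CD4intCD8+ and 0 fell (14 with the block; median 0.69). Cenph, of the inner kinetochore, had 40.7 and 35.6 in DP cells, 108 and 144 in CD4intCD8+ cells, and 92.2 and 117 in CD8SP cells. Cenpk, of the same complex, had 88.9 and 126 in DP cells, 256 and 414 in CD4intCD8+ cells, and 224 and 322 in CD8SP cells. Neither gene overlapped between DP and the later stages, and the log2 changes to CD4intCD8+ were 1.57 ± 0.19 and 1.57 ± 0.26 (limma adjusted p = 0.00305 and 0.00888). Zwilch, which helps load checkpoint proteins, and Cenpi rose by 1.15 and 1.10. In CD8SP against DP 5 of the 25 rose and 0 fell. Among 20 other G2 and mitotic regulators 3 rose and 0 fell (14 with the block; median 0.54): Trip13, which recycles MAD2, by 1.15 ± 0.27, Wee1, the kinase that restrains Cdk1, by 0.99 ± 0.24, and Fbxo5, an inhibitor of the anaphase-promoting complex, by 0.63 ± 0.17 (limma adjusted p from 0.0262 to 0.0415). Mybl2, the B-Myb gene, had 30.3 and 46.4 in DP cells, 51.3 and 84.6 in CD4intCD8+ cells, and 56.6 and 94.5 in CD8SP cells and passed in this comparison only with the block (limma adjusted p = 0.151 without it and 0.012 with it). Of 20 other spindle, motor and cytokinesis genes 0 passed (8 with the block, all higher; 8 higher and 1 lower at an unadjusted p under 0.05; median 0.53). Cit, citron kinase of the midbody, fell from DP to CD8SP (91.2 and 74.3 in CD8SP cells, against 114 and 140.4 in DP cells; log2 change -0.58 ± 0.17, limma adjusted p = 0.0436).

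Machinery around these genes that is not restricted to mitosis was counted too, beside the same shares of all genes tested. These were 6.89% higher and 4.85% lower from DP to CD4intCD8+, and 11.5% and 8.38% from DP to CD8SP. Of 14 anaphase-promoting complex genes 0 rose and 1 fell from DP to CD4intCD8+ (median 0.03), namely Ube2s, the chain-extending enzyme of the complex, with 534 and 544 in CD4intCD8+ cells, against 971 and 1184 in DP cells (-0.98 ± 0.14, limma adjusted p = 0.00507). It also fell from DP to CD8SP (-0.91 ± 0.14), where Anapc11, the catalytic RING subunit, rose (0.60 ± 0.16, limma adjusted p = 0.03). Of 15 cohesin and condensin II genes 2 rose and 1 fell from DP to CD4intCD8+ (median 0.09). Ncapg2, the condensin II counterpart of Ncapg, had 116 and 125 in DP cells, 258 and 365 in CD4intCD8+ cells, and 210.5 and 274 in CD8SP cells (1.31 ± 0.19, limma adjusted p = 0.00602), and Esco2, a cohesin acetyltransferase of S phase, rose by 0.99. Nipbl, the cohesin loader, had 769 and 725 in CD4intCD8+ cells, against 1176 and 1048 in DP cells (-0.57 ± 0.11, limma adjusted p = 0.0127), and Wapl, the cohesin releaser, fell from DP to CD8SP (-0.41 ± 0.12, limma adjusted p = 0.041).

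Regulators of the cell-cycle promoters were counted in the same way. Of 16 E2F, Rb and MuvB genes 2 rose and 2 fell in each of the comparisons with DP, where 6.89% of all genes tested rose and 4.85% fell to CD4intCD8+ and 11.5% rose and 8.38% fell to CD8SP. E2f6 and E2f3 rose to CD4intCD8+ by 0.90 and 0.73. Rbl2, the p130 pocket protein of DREAM, had 557 and 465 in DP cells, 333 and 343 in CD4intCD8+ cells, and 312 and 275 in CD8SP cells, and Rb1, the retinoblastoma gene, had 487 and 421 in DP cells, 313 and 331 in CD4intCD8+ cells, and 267 and 260.3 in CD8SP cells. Both fell from DP to CD4intCD8+ (-0.58 ± 0.14 and -0.49 ± 0.13, limma adjusted p = 0.0283 and 0.0433) and from DP to CD8SP (-0.79 ± 0.14 and -0.77 ± 0.13). E2f1 and E2f2 had a log2 change of 0.18 and 0.01 from DP to CD4intCD8+ and passed in neither fit. Of 10 tested cell-cycle inhibitors 0 rose and 3 fell from DP to CD4intCD8+ (2 higher at an unadjusted p under 0.05): Btg2, an antiproliferative gene, Cdkn2d (p19) and Cdkn1b (p27), with log2 changes of -1.29 ± 0.23, -0.90 ± 0.20 and -0.61 ± 0.17 (limma adjusted p = 0.0102, 0.0221 and 0.0492). The Cdkn1b signal was 796 and 822 in DP cells, 539 and 519 in CD4intCD8+ cells, and 449 and 305 in CD8SP cells, with no overlap between stages. From DP to CD8SP 4 fell, Cdkn1c being the fourth, and 2 rose: Klf2, a quiescence and egress factor, by 1.82 ± 0.32, and Foxo1, which drives it, by 0.93 ± 0.12 (limma adjusted p = 0.00475 and 0.00123).

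Markers of other cells that cycle were checked beside the set. The summed signal of 9 DP markers came to 12746 and 14154 for DP cells, 6725 and 5845 for CD4intCD8+ cells, and 5503 and 5458 for CD8SP cells. That of 9 CD8SP markers, over the same arrays, came to 1714 and 1186, 4011 and 2552, and 6412 and 6216. For 10 double-negative markers it was 559 and 515, 754 and 752, and 1094 and 1010, most of the difference coming from Dtx1 (192 and 171 in DP cells, 379.9 and 308 in CD4intCD8+ cells, and 705 and 535 in CD8SP cells). The sums of the myeloid (9 genes, from 278 to 342), dendritic (7 genes, from 150.1 to 181) and epithelial or stromal lists (10 genes, from 267 to 375) had these ranges over the 6 arrays. The 9 B cell markers summed to between 2016 and 2718, mostly Ighm, while Cd79a lay between 9.48 and 15.8. Of the 5 tested, Cd79b alone rose from DP to CD8SP and 0 fell, where 11.5% of all genes tested rose and 8.38% fell. Cd79b had 31.9 and 34.9 in DP cells and 68.5 and 66.0 in CD8SP cells (0.90 ± 0.19, limma adjusted p = 0.0119). Cd22 lay between 68.7 and 107. Ms4a1 had 27.3 on CD4intCD8+ replicate 2 and lay between 92.1 and 127 on the other arrays. Of the 7 erythroid markers Tfrc, also a gene of dividing cells, had 744 and 585 in DP cells, 948 and 1095 in CD4intCD8+ cells, and 942 and 1055 in CD8SP cells, while Hba-a1 was at most 32.9. The 5 natural killer markers summed to 1134 and 984 for DP cells, 2568 and 3032 for CD4intCD8+ cells, and 2507 and 2801 for CD8SP cells. Most of that sum was Gzma, a granzyme that CD8 cells also make, which rose from DP to CD4intCD8+ (1.55 ± 0.12, limma adjusted p = 0.000655), while Ncr1 lay between 14.2 and 51.6. Their part in the changes of the 47 genes was not tested.

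Probe sets of the same gene mostly gave the same direction. For 28 of the 47 genes more than 1 probe set was bright enough to compare, and all of them had the same sign in 25 for CD4intCD8+ against DP (not in Bub3, Pttg1 and Ttk), in 27 for CD8SP against CD4intCD8+ (not in Pttg1) and in 21 for CD8SP against DP. For 6 genes, Cdc20, Cdc25c, Incenp, Kif22, Kif2c and Ncaph, the chosen probe set has the suffix _x_at, a design that can bind other transcripts too. Other suffixes were not counted, such as the _s_at of Plk4, Bub1b, Bub3, Pttg1, Nek2, Prc1 and Aurkb.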

How the data were processed

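Biotin-labelled cRNA from sorted thymocytes was hybridised to 6 arrays, 2 for each of 3 stages, per the labels' protocols. The deposited values are intensity values on a linear scale, 1 per probe set and array, in the authors' own processing; 3.6% lie below 0, and how they were scaled and background-corrected is not stated there. Of 45101 probe sets 64 were controls, 34945 had 1 gene symbol in the platform annotation, 932 several and 9160 none. Each of 18193 genes was read by its brightest probe set. Negative values were raised to 0 before log2(intensity + 5.84), the pseudocount of 5.84 being the 10th percentile of positive values; fold changes of dim genes are understated on this scale. Genes under the 40th percentile of mean log2 level (intensity 30.7) were left out, 7277 in all, and 10916 were tested with limma 3.58.1 in R 4.3.3, with an intensity trend, in 1 fit over the 6 arrays, with Benjamini-Hochberg adjustment over all genes tested at 0.05. With 2 arrays a stage, 3 residual degrees of freedom limit the precision. The script was tested on simulated data. Figures were drawn with matplotlib 3.10.9.

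The replicate numbers were taken to pair the arrays. Per the labels the arrays come from a pair of independent experiments, but the sample titles give only a number and name no experiment. Deviations of same-numbered arrays from their partners correlated at 0.26, 0.21 and 0.30 between stages. A second fit held replicate number as a block, and its values stand beside the results it changes. The members, lists and tests were chosen with earlier results of these data known. Any member may be named. Values on every array are given for the 3 brightest members of each role and the 10 with the smallest limma p in each pairwise comparison. Of other lists, up to 4 genes that passed with the largest change were named, and Ccne2, Mcm3, E2f1, E2f2, Mybl2, Rbl2, Cdkn1b, Cdkn2c and Klf2 could be. Alternatives were other pseudocounts, no filter, quantile normalization, no trend, the mean of all probe sets of a gene, the actin ratio as a covariate and each array left out. Promoter windows came from RefSeq; members with no window there were not searched.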

Additional observations from a re-analysis of the deposited data

How the results depend on the processing

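With the replicate block 2572 genes passed for CD4intCD8+ against DP, 226 for CD8SP against CD4intCD8+, 3278 for CD8SP against DP and 209 for CD4intCD8+ against the mean of both, and of the 47 genes 28 rose, 1 fell, 11 rose and 7 were higher. Without an intensity trend 806 genes and 3 of the 47 passed for CD4intCD8+ against DP, and 0 of the 47 rose in CD8SP against DP. With the mean of all probe sets the first counts were 764 and 3, 2 genes passed for CD8SP against CD4intCD8+, 0 of the 47 rose and 0 fell in CD8SP against DP, and Ttk turned, to -0.00921 there (limma adjusted p = 0.986). With the actin covariate 410 genes and 0 of the 47 passed for CD4intCD8+ against DP, with the median at -0.0446; 34 genes passed for CD8SP against CD4intCD8+, 0 of the 47 rose in CD8SP against DP, and in the comparison with the mean of both 6 genes passed and the median was -0.006. That comparison gave 0 genes with a pseudocount at the 25th percentile, with no filter, without a trend and with the mean of all probe sets. Quantile normalization and a pseudocount of 1 moved none of these counts by more than 1.5 times. The cause of these shifts was not tested.

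Leaving out each array in turn gave from 194 to 1406 genes for CD4intCD8+ against DP, with 0 to 30 of the 47 higher, 0 lower and a median from 0.253 to 0.884. For CD8SP against CD4intCD8+ it gave from 6 to 73 genes, 0 of the 47, and a median from -0.614 to -0.0159. For CD8SP against DP it gave from 1025 to 2350 genes, 0 to 6 of the 47 higher, 0 to 1 lower, and a median from -0.0267 to 0.52. Against the mean of both it gave from 0 to 65 genes, 0 to 5 of the 47, and a median from 0.148 to 0.787. Of the 6 genes that rose from DP to CD4intCD8+, 0 passed without either DP array and 1 without CD4intCD8+ replicate 2. The same alternatives were applied to the replication genes, and each array was left out of the order of stage means (19 to 42 of 47), after seeing the data.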
